A study of Mus musculus with 4 samples.

Results

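The genes described here encode kinases, adaptors and an inhibitor that sit between surface receptors and the transcription factor NF-kB. They are Malt1, Bcl10 and Prkcb of the antigen receptor route, Map3k7 (TAK1) with its partners Tab1, Tab2 and Tab3, Ikbkb and Ikbkg of the IkB kinase (IKK) complex, and the inhibitor Tnip1. All 10 were chosen by name and matched by symbol in the platform annotation, as 10 of 17097 named genes and 29 of 45037 probe sets (a probe set is a group of short probes for 1 transcript). The probe set of a gene with the brightest mean signal stands for it below, and its other probe sets are given beside it. Affymetrix arrays measured total RNA of B cells that had been isolated from the lymph nodes of Balb/C males aged 6 to 8 weeks, by magnetic depletion of other cells and removal of dead cells. The wild type group held 2 mice. The miR-146a transgenic group, which over-expresses this microRNA, also held 2, with 1 array per mouse. The sources used here do not name the promoter that drives the transgene, nor say whether the transgenic mice come from 1 founder line. The sources name no treatment, and no batch or array date is given in those used here.

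In B cells, antigen binding activates the kinase PKC-beta. Its activity leads BCL10 and the protease MALT1 to assemble into filaments that recruit ubiquitin ligases. Ubiquitin chains are bound by TAB2 or TAB3, which bring the kinase TAK1 close to the IKK complex, and IKK marks the IkB inhibitors for destruction so that NF-kB enters the nucleus. Toll-like receptors reach the same TAK1 and IKK complexes through the adaptors IRAK1 and TRAF6, well known targets of miR-146a. The mature microRNA is shown because its seed, bases 2 to 8 (capitals), is the part that pairs with target transcripts. It is encoded on the minus strand at chr11:43374435-43374456 of GRCm38.p6, and the sequence is from RefSeq.
mmu-miR-146a-5p: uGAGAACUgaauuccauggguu
Target sites in the transcripts of the 10 genes, and the level of the microRNA itself, were not analysed here.

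The signals were log2 values, so a difference of 1 is a 2-fold change. Across probe sets the 2 wild type arrays had a Pearson r of 0.9984 and the 2 transgenic arrays of 0.9893. The array of transgenic mouse 1 had an upper quartile of 6.13, against 6.51 to 6.55 on the other 3. B cell markers such as Cd79a and Ms4a1 were bright in wild type mice (10.47 and 10.75 for Cd79a, 11.27 and 11.33 for Ms4a1), but so was the T cell marker Cd3d (11.42 and 11.39). Another B cell marker, Pax5, read 4.91 and 4.67 there, near those arrays' medians of 4.6 and 4.59. The 13 measured B cell markers had median signals of 10.47 and 10.7 in wild type mice, and 9.55 and 9.66 in transgenic mice. For 12 T cell markers those medians were 10.13 and 10.15, and 10.28 and 10.38. The labelled B cells were therefore accompanied by T cell transcripts in both groups.

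None of the 10 genes changed past the threshold in transgenic B cells (limma with Benjamini-Hochberg adjustment over all probe sets, adjusted p of 0.05). Their adjusted p ranged from 0.212 for Tab1 to 0.879 for Tab3. Over all probe sets 21 of 45037 passed, 0.0466%, so a count of 0 among 10 genes is near that background. At an unadjusted limma p under 0.05 there were 3 members, Tab1, Map3k7 and Ikbkg. The share was 14.1% of all named genes, and 2196 of the 12024 above the filter on dim probe sets. All 10 differences were below 0, from -0.63 for Map3k7 to -0.06 for Tnip1. The median was -0.16, against -0.05 over all named genes and -0.11 over the 12024 named genes above the filter on dim probe sets, which all 10 passed. For 7 members both transgenic values lay below both wild type values, beside 31.4% of all named genes and 37.9% of those above the filter on dim probe sets. For 1 gene with 2 values per group, 0.333 is the smallest p that a two-sided exact permutation test allows.

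**Figure D1:**
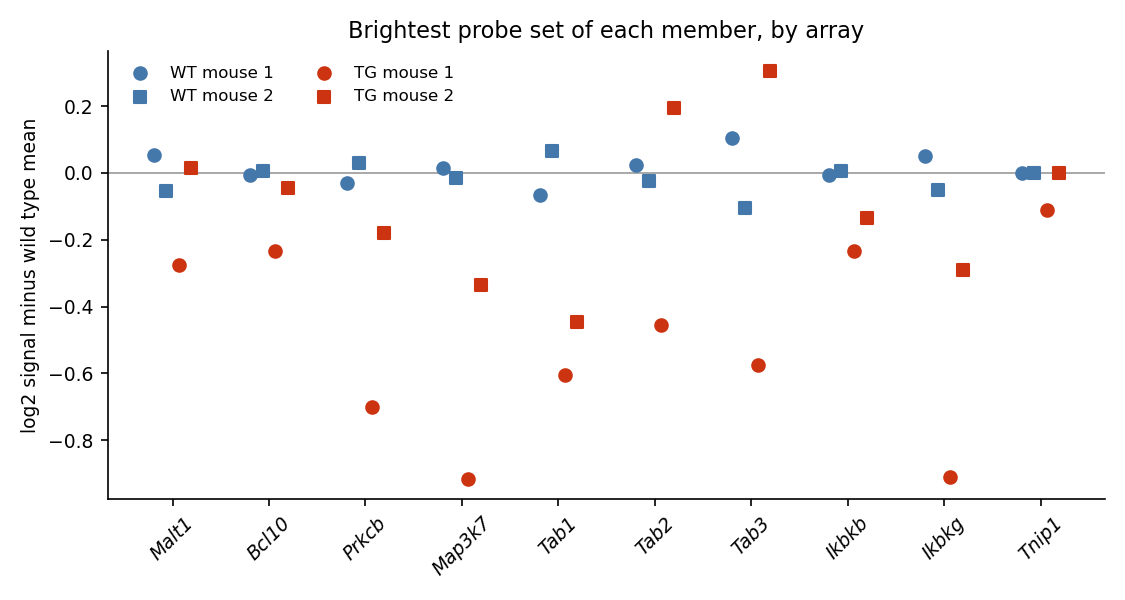
Log2 signal of each member's brightest probe set on each of the 4 arrays, as the difference from the wild type mean (vertical axis, log2 units; circles mouse 1, squares mouse 2, blue wild type, red transgenic). The array of transgenic mouse 1 was the lowest of the 4 for all 10 members, and that of transgenic mouse 2 lay above both wild type arrays for Tab2 and Tab3.

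The members divided by how far the array of transgenic mouse 2 lay from wild type, which the plot of members by array shows. On the array of transgenic mouse 1, all 10 members lay below both wild type values, as did 61.8% of all named genes. On that of transgenic mouse 2, 7 of 10 members did, beside 37.7%. The median difference from the wild type mean was -0.51 for transgenic mouse 1 and -0.09 for transgenic mouse 2. For all named genes those medians were -0.14 and 0.01. Every member was lower in transgenic mouse 1 than in transgenic mouse 2, as were 74.2% of all named genes. The part of that array's lower overall signal in the members' differences was not tested, and rescaled values are given further on.

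Prkcb, the PKC-beta kinase that starts the antigen receptor route in B cells, had signals of 10.06 and 10.12 in wild type mice 1 and 2 and 9.39 and 9.91 in transgenic mice 1 and 2 (probe set 1460419_PM_a_at). Both transgenic values lay below both wild type values, and the transgenic pair was 0.52 apart. The difference was -0.44 (SE 0.20, 95% interval -0.95 to 0.07, limma adjusted p = 0.417), a 1.36-fold lower signal. A second probe set, 1423478_PM_at, read 8.99 and 9.06 in wild type mice and 8.07 and 8.47 in transgenic mice. It also separated the groups, by -0.76 (SE 0.16, limma adjusted p = 0.207), the smallest adjusted p among the 29 probe sets. Both Prkcb probe sets thus differed in the same direction without overlap.

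Bcl10, the adaptor that forms the filament core, had 9.59 and 9.60 in wild type and 9.36 and 9.55 in transgenic mice on its brightest probe set (1418970_PM_a_at). The groups did not overlap, but transgenic mouse 2 lay within 0.04 of the wild type mean. The difference was -0.14 (SE 0.11, 95% interval -0.44 to 0.16, limma adjusted p = 0.621). Its other 3 probe sets gave 0.01, -0.14 and 0.68. The last, 1418972_PM_at, read 6.73 and 7.27 in wild type and 7.84 and 7.53 in transgenic mice, without overlap in the opposite direction (SE 0.22, limma adjusted p = 0.315). The direction for Bcl10 therefore depended on the probe set, and the mean of all 4 differed by 0.10.

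Malt1 encodes the paracaspase, a protease that both scaffolds ubiquitin ligases and cleaves regulators of the pathway. Its brightest probe set (1456126_PM_at) read 8.56 and 8.45 in wild type and 8.23 and 8.52 in transgenic mice, so the groups overlapped. The difference was -0.14 (SE 0.14, 95% interval -0.50 to 0.23, limma adjusted p = 0.69). The other 2 probe sets differed by -0.02 and -0.07 with overlap. On all 3, transgenic mouse 1 was the lowest array and transgenic mouse 2 was at or above the wild type mean.

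Map3k7 encodes TAK1, the kinase that activates IKK and the JNK and p38 pathways. On its brightest probe set (1455441_PM_at) the signals were 7.10 and 7.07 in wild type and 6.17 and 6.75 in transgenic mice. Both transgenic arrays were below both wild type arrays, and they stood 0.58 apart. The difference of -0.63 (SE 0.21, 95% interval -1.19 to -0.07, limma adjusted p = 0.325), 1.55-fold, was the largest among the members' brightest probe sets. The other 4 probe sets of Map3k7 gave smaller differences, from -0.28 to -0.03, 2 of them without overlap. The mean of all 5 differed by -0.26.

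Tab1, which binds TAK1 and promotes its activation, was measured by 1 probe set (1426898_PM_at). It read 6.57 and 6.70 in wild type and 6.03 and 6.19 in transgenic mice. Here the transgenic arrays were close to each other, 0.16 apart, and both stood below wild type, by 0.61 and 0.45 on the log2 scale. The difference was -0.53 (SE 0.12, 95% interval -0.83 to -0.22, limma adjusted p = 0.212), a 1.44-fold lower signal.

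Tab2 and Tab3 are the related adaptors that bind ubiquitin chains and recruit TAK1. Tab2 (1423462_PM_at) read 10.02 and 9.97 in wild type and 9.54 and 10.19 in transgenic mice. Tab3 (1428762_PM_at) read 6.35 and 6.14 in wild type and 5.67 and 6.55 in transgenic mice. On these brightest probe sets the wild type arrays of both genes lay between the transgenic ones. The differences were -0.13 for Tab2 (SE 0.23, 95% interval -0.74 to 0.48, limma adjusted p = 0.824) and -0.13 for Tab3 (SE 0.31, 95% interval -0.94 to 0.68, limma adjusted p = 0.879). A second Tab2 probe set, 1451003_PM_at, read 8.80 and 8.85 in wild type and 8.67 and 8.79 in transgenic mice, lower without overlap by a difference of -0.09 (SE 0.10). The gap of 0.88 between the transgenic arrays at Tab3 was wider than that of any other member's brightest probe set.

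Ikbkb encodes IKK-beta, the kinase that phosphorylates the IkB proteins. Its brightest probe set (1426207_PM_at) read 10.13 and 10.14 in wild type mice 1 and 2, and transgenic mice 1 and 2 differed from their mean by -0.23 and -0.14 (transgenic mean 9.95). The values were tight in both groups and did not overlap. The difference was small, -0.19 (SE 0.10, 95% interval -0.45 to 0.08, limma adjusted p = 0.481). Of the other 3 probe sets, 1426333_PM_a_at differed by 0.44 (SE 0.13, limma adjusted p = 0.299), from 5.22 and 5.44 to 5.67 and 5.86. The other two overlapped between the groups.

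Ikbkg encodes NEMO, the regulatory subunit through which IKK binds ubiquitin chains. The signals on the brightest of its 6 probe sets (1454690_PM_at) were 7.88 and 7.78 in wild type and 6.92 and 7.54 in transgenic mice. The groups did not overlap, with transgenic mouse 1 well below transgenic mouse 2. The difference was -0.60 (SE 0.22, 95% interval -1.19 to -0.02, limma adjusted p = 0.358), 1.52-fold. Its 3 dimmest probe sets went the other way without overlap, by 0.26, 0.32 and 0.23 (limma adjusted p from 0.312 to 0.549). Averaged over all 6, Ikbkg differed by -0.01. The size of the difference therefore rested on 1 probe set, and its direction depended on the probe set.

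Tnip1 encodes ABIN-1, which binds ubiquitin chains and the deubiquitinase A20 and restrains the pathway. Its probe set (1427689_PM_a_at) read 8.72 and 8.72 in wild type and 8.61 and 8.72 in transgenic mice. Transgenic mouse 2 lay at the wild type level and counts as not overlapping by a margin smaller than the digits shown, so transgenic mouse 1 carried the difference. The difference was -0.06 (SE 0.10, 95% interval -0.33 to 0.21, limma adjusted p = 0.818), the smallest among the members' brightest probe sets.

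**Figure D2:**
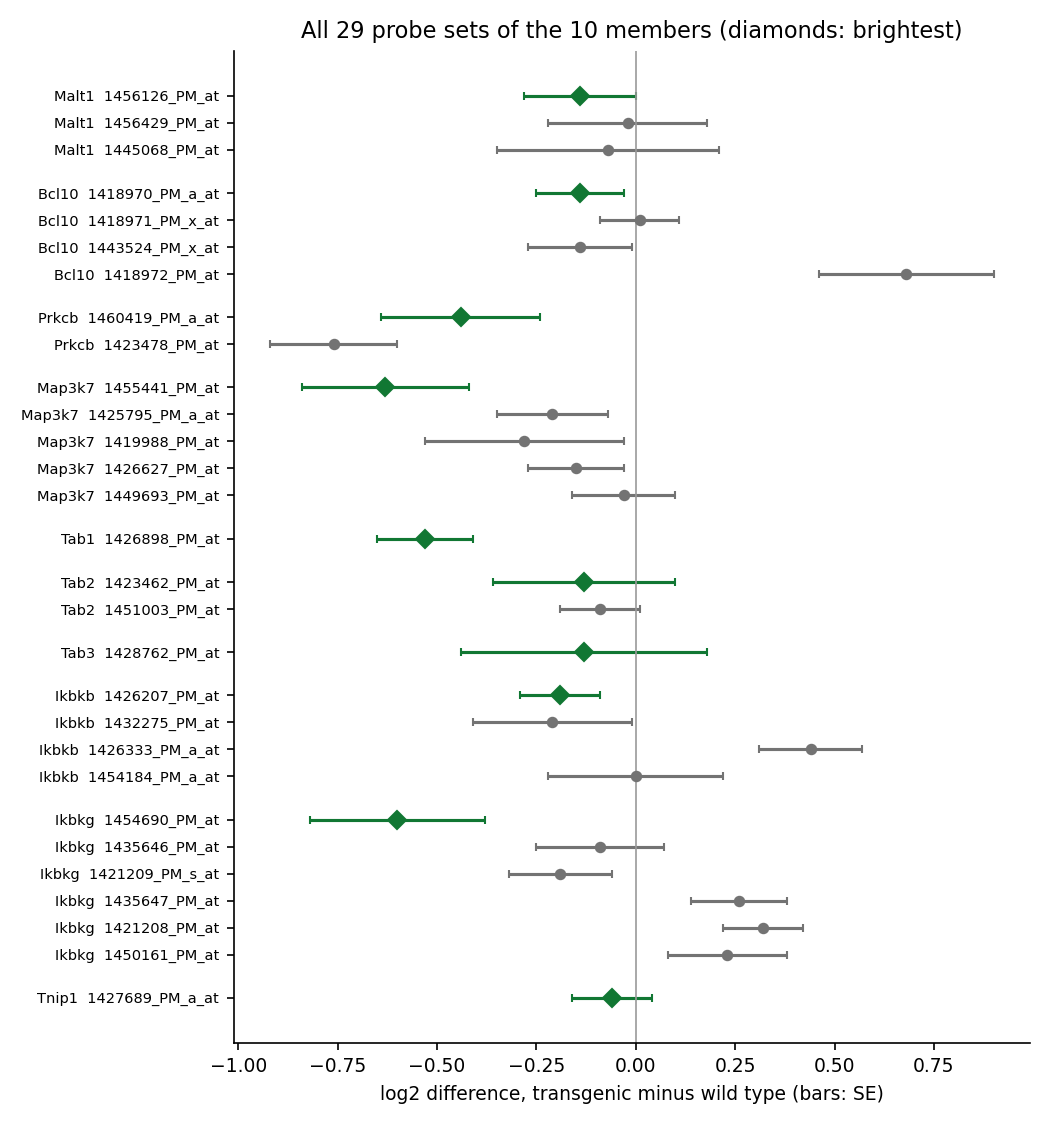
Log2 difference, transgenic minus wild type, with its SE, for each of the 29 probe sets of the 10 members (horizontal axis; green diamonds mark the brightest probe set of each gene). Both Prkcb probe sets lie below 0, while Bcl10, Ikbkb and Ikbkg each have probe sets on both sides of 0.

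Over all 29 probe sets, none passed and 12 were lower and 5 higher without overlap, beside 31.4% and 17.7% of all probe sets. The 5 higher ones belonged to Bcl10, Ikbkb and Ikbkg. Probe sets of 1 gene share its transcripts and arrays and are not replicates. In Affymetrix naming, a suffix _x_at or _s_at marks probe sets that can also bind other transcripts, which applies to 2 of Bcl10 and 1 of Ikbkg. One Map3k7 probe set (1449693_PM_at) was below the filter on dim probe sets, and the other 28 were above it.

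Upstream sequences were available in the RefSeq table for 7 of the 10 genes. The 250 bases before the annotated start were searched on both strands for the NF-kB consensus motif, since Tnip1 is known as a gene that NF-kB itself induces. The 7 genes had 11 such windows, since Ikbkg has 4 annotated starts and Tab2 has 2. The motif was found in 3 of the 11, those of Tnip1, Map3k7 and Bcl10, and in 7.25% of 32851 windows of all genes. On brightest probe sets Map3k7 and Tnip1 had the widest and the narrowest difference of the members. Their windows are shown with the matches in capitals (GRCm38.p6, Map3k7 at chr4:31963857-31964106, plus strand, and Tnip1 at chr11:54962941-54963190, minus strand).
Map3k7: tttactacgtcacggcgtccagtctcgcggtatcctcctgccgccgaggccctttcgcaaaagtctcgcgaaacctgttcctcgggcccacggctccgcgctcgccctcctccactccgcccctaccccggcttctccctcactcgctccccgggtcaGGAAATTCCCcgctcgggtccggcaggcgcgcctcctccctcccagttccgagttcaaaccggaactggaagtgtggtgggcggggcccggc
Tnip1: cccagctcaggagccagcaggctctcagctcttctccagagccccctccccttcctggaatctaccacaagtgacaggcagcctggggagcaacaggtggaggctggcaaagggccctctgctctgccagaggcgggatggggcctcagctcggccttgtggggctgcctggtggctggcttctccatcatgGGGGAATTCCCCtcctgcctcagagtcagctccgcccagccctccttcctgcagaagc
The capitals in Tnip1 are 3 overlapping matches in a run of 12 bases that begins 58 bases before the start, and the match in Map3k7 begins 92 bases before it. A match is a description of the letters and not a measured binding site. The windows were rich in G and C, 68.0% for Map3k7 and 65.2% for Tnip1, against a median of 52.4% over all windows, but differed in CpG pairs, 28 against 3.

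The members' differences depended on how the arrays were scaled and on which transgenic array was used. After quantile normalization, which gives every array the same distribution, 870 probe sets passed (1.93%) but no member did. The median of the members was then -0.025, and Malt1 (0.036), Tab2 (0.009), Tab3 (0.08) and Tnip1 (0.11) lay above 0. On their brightest probe sets Map3k7 (-0.41), Ikbkg (-0.41), Prkcb (-0.30) and Tab1 (-0.30) kept their direction, as did Bcl10 (-0.004) and Ikbkb (-0.046). The other probe sets of Ikbkg all lay above 0 after this scaling, from 0.04 to 0.50. So did the other probe sets of Bcl10, from 0.05 to 0.88, and of Ikbkb, from 0.02 to 0.61. Those of Map3k7 lay from -0.12 to -0.01. Of the 10 members 4 were then lower without overlap, beside 24.5% of all named genes. After median centring all 10 differences remained below 0, with a median of -0.11. With the mean of a gene's probe sets in place of the brightest one, 4 members were lower without overlap, beside 31.5% of all named genes. The median over all named genes moved from -0.05 as deposited to 0.02 after quantile normalization. For named genes above the filter on dim probe sets it was -0.11 as deposited, and was not computed after quantile normalization.

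With transgenic mouse 1 left out, 7 members stayed below 0, from -0.447 for Tab1 to -0.005 for Tnip1. Tab2 (0.19), Tab3 (0.31) and Malt1 (0.01) then lay above 0, and 7 members were lower and 2 higher without overlap, beside 37.7% and 43.0% of all named genes. Leaving out transgenic mouse 2 instead gave 7 members lower, Malt1, Prkcb, Map3k7, Tab1, Tab2, Tab3 and Ikbkg, where 42.4% of all probe sets passed. Map3k7 was then -0.92 and Ikbkg -0.91, and all 10 were lower without overlap, beside 61.8%. In both of these fits the lone transgenic array is assumed to vary like the wild type pair. The fits also share both wild type arrays, so they are not independent. Tab1 differed by -0.45 in the first and by -0.61 in the second.

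**Figure D3:**
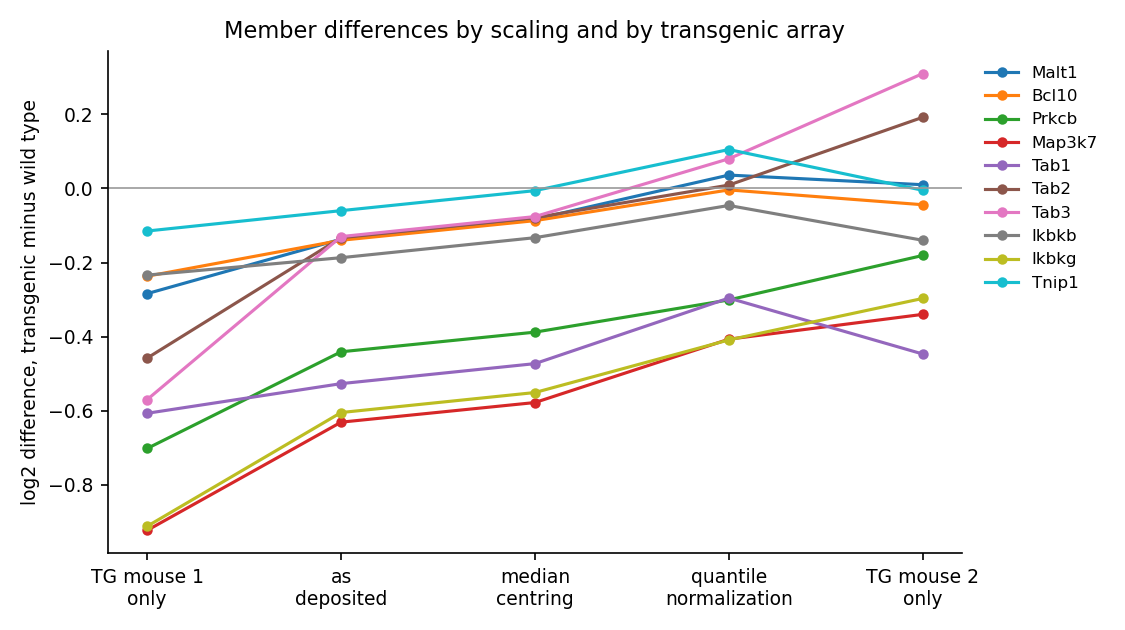
Log2 difference of each member, transgenic minus wild type (vertical axis), from transgenic mouse 1 alone, as deposited, after median centring, after quantile normalization, and from transgenic mouse 2 alone (horizontal axis, not ordered by any quantity; lines join the values of 1 gene). Only brightest probe sets are drawn. On these Map3k7, Ikbkg, Prkcb and Tab1 stay below 0 throughout, as do Bcl10 and Ikbkb. Tab2 and Tab3 move from -0.46 and -0.57 to 0.19 and 0.31. The other probe sets of Ikbkg, Bcl10 and Ikbkb lay above 0 after quantile normalization.

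Other genes of the same route were read from the same fit. Of 53 listed genes 46 were measured and 7, Chuk and Ripk1 among them, were not analysed here. None passed (limma, adjusted p from 0.185 to 0.976), with 12 at an unadjusted p under 0.05. Over all named genes 14.1% were below that unadjusted p. All 46 lay above the filter on dim probe sets, as did 12024 named genes, of which 2196 were below that p. The median of the 46 was -0.20, against -0.05 over all named genes and -0.11 over those above the filter. Without overlap, 20 of the 46 were lower and 7 higher, beside 31.4% and 17.7% of all named genes. Above the filter 37.9% were lower and 1829 of the 12024 higher. The counts of each list below are to be read against these shares. The median of the 46 was -0.019 after quantile normalization and 0.037 without transgenic mouse 1.

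Among 9 CARD proteins and protein kinase C isoforms (median 0.01, 2 lower and 3 higher without overlap), the isoforms of Prkcb's family differed in sign. Prkcd, an isoform linked to B cell tolerance, differed by -0.49 (SE 0.12, limma adjusted p = 0.226) and Prkce by -0.62 (SE 0.20). Prkch and Prkcz differed by 0.25 and 0.45. With the mean of its probe sets Prkch differed by 0.73, and without transgenic mouse 2 Prkcz differed by 0.27. Prkce differed by -0.35 without transgenic mouse 1. Prkcq, the isoform that T cells use in place of PKC-beta, was chosen after its values were seen. It read 9.86 and 9.90 in wild type and 10.10 and 10.09 in transgenic mice, a difference of 0.21 (SE 0.10, limma adjusted p = 0.422).

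Among 17 TRAF proteins, ubiquitin ligases and ubiquitin editors the median was -0.29, with 11 lower and 3 higher without overlap. Ube2v1, a cofactor of the enzyme that builds the chains TAB2 and TAB3 bind, read 9.19 and 9.15 in wild type and 8.67 and 8.67 in transgenic mice (difference -0.50, SE 0.10, limma adjusted p = 0.185). Birc3, the ligase cIAP2, differed by -0.60 (SE 0.13, limma adjusted p = 0.214) and Traf2 by -0.54 (SE 0.15). Tnfaip3, the editor A20 that binds the Tnip1 protein, differed the other way. It read 11.29 and 11.25 in wild type and 11.74 and 11.74 in transgenic mice, a difference of 0.47 (SE 0.10, limma adjusted p = 0.194). The mean of its probe sets differed by 1.12 (limma adjusted p = 0.0598).

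The 8 other IKK-related and NF-kB-inducing kinases had a median of -0.14, with 3 lower without overlap, and of 0.02 after quantile normalization and 0.08 without transgenic mouse 1. Map3k1 read 8.56 and 8.57 in wild type and 7.67 and 8.33 in transgenic mice. Its difference was -0.57, with -0.23 when transgenic mouse 1 was left out and -0.90 when transgenic mouse 2 was. Map3k14 (NIK, of the alternative NF-kB pathway) differed by -0.34 and by -0.22 without transgenic mouse 1, Map3k3 by -0.18, and Tbk1 by -0.26 with overlap. The 6 kinases of the JNK and p38 branch below TAK1 also had a median of -0.14, which was 0.06 after quantile normalization and 0.02 without transgenic mouse 1. There Map2k6 was lower without overlap (-0.21), and Map2k4 (-0.27), Mapk14 (-0.22) and Map2k3 (-0.07) overlapped. Leaving out transgenic mouse 1 brought Map2k4 to -0.039, and leaving out transgenic mouse 2 to -0.50.

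The last list held proteins that MALT1 cleaves, together with Nfkbiz, which is better known as a transcript degraded by the substrate Regnase-1 (Zc3h12a). Of its 8 genes, 3 were lower and 2 higher without overlap. The median was -0.17, and 0.03 after quantile normalization and 0.06 without transgenic mouse 1. Relb, an NF-kB subunit, differed by -0.64 (SE 0.16, limma adjusted p = 0.242) and Rc3h2 (Roquin-2) by -0.50 (SE 0.16). Nfkbiz, an atypical IkB protein, read 9.0 and 9.02 in wild type and 9.48 and 10.08 in transgenic mice, a difference of 0.77 (SE 0.22, limma adjusted p = 0.274). The mean of its probe sets differed by 0.42, and leaving out transgenic mouse 2 gave 0.47. After quantile normalization Nfkbiz (0.92, limma adjusted p = 0.046) and Prkcz (0.62, limma adjusted p = 0.045) passed, the 2 of the 46 genes that did.

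**Figure D4:**
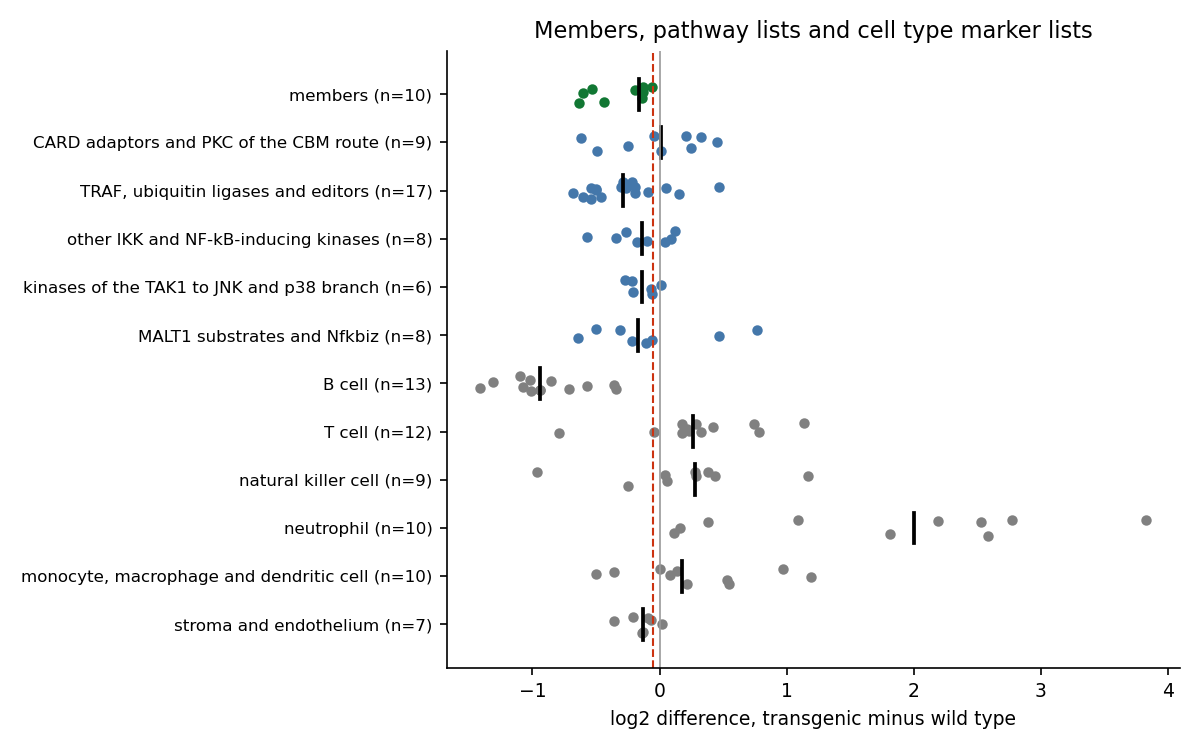
Log2 difference, transgenic minus wild type (horizontal axis), of each measured gene of the member list (green), the pathway lists (blue) and the cell type marker lists (grey); black bars are list medians and the red dashed line is the median over all named genes, -0.05. The members' median of -0.16 lies between that line and the B cell markers' median of -0.94.

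Markers of the cells in the preparation also differed in level between the groups, and most did not pass the threshold as deposited. All 13 measured B cell markers were lower without overlap (median -0.94), and their summed linear signal was 17830 to 18820 in wild type and 9899 to 10360 in transgenic mice. Of 12 T cell markers 10 were higher without overlap and Cd4 was lower (median 0.26, summed signal 12930 to 13050 against 15270 to 17450). All 10 neutrophil markers were higher without overlap (median 2.00, summed signal 369.7 to 371.1 against 1626 to 2266). Among them were Chil3 and Ngp, the only markers of these lists that passed as deposited. Elane and Mpo differed by only 0.16 and 0.11, and Mpo lay below the filter on dim probe sets. Over all named genes 31.4% were lower and 17.7% higher without overlap. After quantile normalization 8 B cell markers were lower past the threshold, and 7 neutrophil, 3 T cell and 2 monocyte, macrophage and dendritic cell markers were higher. For natural killer cells 1 marker was then higher and 1 lower. Natural killer cell markers had a median of 0.28 (summed signal 2598 to 2683 against 2549 to 3191), monocyte, macrophage and dendritic cell markers 0.18 (1435 to 1443 against 1820 to 2150), and stromal and endothelial markers -0.13 (208.6 to 226.2 against 175.4 to 184.9). Of the stromal markers, Col1a1 and Col1a2 lay at 2.68 to 2.79 in wild type mice, near the non-specific control probe sets at 2.83 and 2.84. In bulk RNA, fewer cells of a type and less RNA per cell cannot be told apart. The part of the cell mixture in the differences of Prkcb and the other members was not tested.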

How the data were processed

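Log2 signals were deposited by the authors as 1 table, with a value for each probe set on each array. The log2 unit was read from the values (2.02 to 13.03), and the background correction, scaling and summarisation are not given in the sources used here. Detection calls were not used here. Groups came from the sample titles. The platform annotation named 1 gene for 28898 probe sets, and 104 control probe sets were left out.

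Transgenic was compared with wild type over 45037 probe sets with R 4.3.3 and limma 3.58.1 (two-sided moderated tests from lmFit and eBayes, adjusted by Benjamini-Hochberg, threshold 0.05, 2 residual and 2.692 prior degrees of freedom), after the code was tested on simulated data. In the simulation, 2 of 50 log2 changes of 1 and 46 of 50 changes of 2 were recovered, with 8 false calls. The largest difference of a member's brightest probe set was -0.63, and that of any of the 29 probe sets was -0.76. Differences of these sizes would seldom pass. Intervals are 95% intervals from the same fit. The number of arrays limits the precision.

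The members and lists were chosen with earlier results of these data known. The named genes are the 10 members with all their probe sets and, from each pathway list, up to 4 genes with the smallest p. Prkcq was added outside this rule. Alternatives were quantile normalization, median centring, a replicate block, leaving out each array, a filter at the 40th percentile of mean signal (4.10), trended and robust eBayes, the average of a gene's probe sets, and an adjusted p of 0.1. The pseudocount alternative did not apply to log2 values. No coordinates of probe sets are printed, since the table names no genome build; sequences are from RefSeq (GRCm38.p6). Figures were drawn with matplotlib 3.10.9.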

Additional observations from a re-analysis of the deposited data

How the results depend on the processing

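With 2 arrays per group, calls depended mostly on the scaling and on single arrays. Against 21 probe sets called as deposited (81.0% of them higher), quantile normalization gave 870 (46.2% higher), median centring 614 (30.8% higher), the filter on dim probe sets 51 and an adjusted p of 0.1 139. Leaving out 1 array gave 0 to 19110: none without wild type mouse 1 or 2 (1631 and 1576 at an unadjusted limma p under 0.05), 4140 without transgenic mouse 1 and 19110 without transgenic mouse 2. The count of members called stayed 0 under the other alternatives, and ranged from 0 to 7 when 1 array was left out. Pathway genes called were 2 after quantile normalization and 0 to 33 when 1 array was left out (7 without transgenic mouse 1, 33 without transgenic mouse 2). The members' median was -0.164 as deposited, -0.025 after quantile normalization and -0.514 (without transgenic mouse 2) to -0.092 when 1 array was left out, and that of the pathway genes -0.373 to 0.037. Members lower without overlap numbered 4 after quantile normalization and 4 with the mean of all probe sets, and 7 to 10 when 1 array was left out. Those higher without overlap numbered 0 to 2 when 1 array was left out.

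Signs turned after quantile normalization for Malt1 (0.036), Tab2 (0.009), Tab3 (0.08), Tnip1 (0.105), Map2k3 (0.1) and Map2k6 (0.015), without transgenic mouse 1 for Malt1 (0.01), Tab2 (0.192), Tab3 (0.31), Map2k3 (0.054), Mapk14 (0.025) and Tbk1 (0.112), and with the mean of all probe sets for Bcl10 (0.102), Ikbkb (0.011) and Map2k3 (0.099). Without transgenic mouse 2 the same genes as without transgenic mouse 1 were at -0.284, -0.458, -0.57, -0.202, -0.457 and -0.635, in that order. The causes were not tested. With the mouse number as a replicate block 15 probe sets and no member were called, and the members' median stayed -0.164. The labels give no pairing between the groups, and the deviations of same-numbered arrays from their group means had a correlation of 0.0145 across probe sets.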
